A study of Mus musculus with 6 samples.

Results

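The urea cycle genes and the genes that make, break or feed glutamine were compared between livers of mice given deproteinized extract of calf blood (DECB) and livers of control mice. The 9 genes were taken by symbol. They are Cps1, Otc, Ass1, Asl, Arg1, Nags and Gls2, which are expressed mainly by periportal hepatocytes, and Glul and Oat, which are expressed mainly by pericentral hepatocytes. All 9 were among the 14805 genes tested, each well above background on all 6 arrays, with 11 probes in all. Otc and Ass1 had 2 probes each. None of the 9 passed the test for a difference between DECB and control livers.

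The mice were males of ICR, an outbred stock. DECB mice were dosed into the stomach every day for 35 days with 0.08 mL of DECB per 20 g, and control mice with as much normal saline. The arrays are named DECB 4, 5 and 6 and control 1, 2 and 3. The sample descriptions instead give 30 days for DECB and 1 day for controls, and this conflict with the 35 days was not resolved. The labels do not say which mouse an array came from or whether RNA was pooled, so p-values cover only the spread between these 6 samples, and that spread may be technical. The study also timed how long mice tolerated a closed container, and the labels do not place the liver sampling relative to that test.

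The urea cycle turns ammonia into urea for excretion. It begins in hepatocyte mitochondria, where Cps1 makes carbamoyl phosphate once N-acetylglutamate, the product of Nags, has activated it, and where Otc joins carbamoyl phosphate to ornithine to give citrulline. Ass1, Asl and Arg1 complete the cycle in the cytosol, and Arg1 releases urea and returns ornithine. Gls2, the liver glutaminase, frees ammonia from glutamine on the periportal side of the lobule. Glul, glutamine synthetase, is confined in normal liver to a thin layer of hepatocytes around the central vein, where it takes up ammonia that escaped the cycle. Oat, ornithine aminotransferase, turns ornithine toward glutamate in the same pericentral zone. In whole liver RNA, fewer cells of a type and less RNA per cell cannot be told apart.

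The sequences before the start sites of 5 members are shown so that the windows of genes from both zones can be set side by side. The RefSeq promoter table of the GRCm38.p6 assembly matched 5 of the 9 members, Otc, Ass1, Nags, Glul and Oat. Each line gives the 250 bases before the start, 5′ to 3′ on the gene's strand. Capitals mark matches on either strand to a TATA box with the letters TATAAA, to the letters of a CCAAT box, to a C/EBP motif with the letters TTNNGNAA or to an HNF4 motif with the letters CAAAGTNCA.
Otc (chrX:10252055-10252304, plus strand): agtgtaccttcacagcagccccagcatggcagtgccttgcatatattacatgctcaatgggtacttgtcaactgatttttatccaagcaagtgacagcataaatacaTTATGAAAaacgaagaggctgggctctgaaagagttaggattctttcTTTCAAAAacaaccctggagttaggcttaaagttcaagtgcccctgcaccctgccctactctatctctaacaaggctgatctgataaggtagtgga
Ass1 (chr2:31470020-31470269, plus strand): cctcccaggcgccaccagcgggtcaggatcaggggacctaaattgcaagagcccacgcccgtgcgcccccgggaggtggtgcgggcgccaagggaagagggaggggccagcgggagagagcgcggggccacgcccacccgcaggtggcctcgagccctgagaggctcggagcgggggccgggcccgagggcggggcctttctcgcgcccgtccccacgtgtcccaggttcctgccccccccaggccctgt
Nags (chr11:102145263-102145512, plus strand): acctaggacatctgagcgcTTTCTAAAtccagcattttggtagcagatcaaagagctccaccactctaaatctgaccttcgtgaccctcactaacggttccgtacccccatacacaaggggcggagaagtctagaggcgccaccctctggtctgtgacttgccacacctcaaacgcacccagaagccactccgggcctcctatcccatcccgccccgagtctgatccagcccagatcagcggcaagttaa
Glul (chr1:153899679-153899928, plus strand): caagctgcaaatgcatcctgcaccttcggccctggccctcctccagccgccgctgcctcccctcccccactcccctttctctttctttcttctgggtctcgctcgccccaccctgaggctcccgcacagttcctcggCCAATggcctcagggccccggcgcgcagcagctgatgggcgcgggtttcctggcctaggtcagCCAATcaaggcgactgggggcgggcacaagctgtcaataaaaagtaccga
Oat (chr7:132576399-132576648, minus strand): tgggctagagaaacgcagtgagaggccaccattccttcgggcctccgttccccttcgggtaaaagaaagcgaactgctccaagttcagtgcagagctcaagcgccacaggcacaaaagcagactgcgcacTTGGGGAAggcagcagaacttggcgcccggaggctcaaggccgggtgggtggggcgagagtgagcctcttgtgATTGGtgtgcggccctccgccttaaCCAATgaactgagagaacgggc
Otc held 2 C/EBP motif matches and Nags held 1. Glul held 2 CCAAT boxes, and Oat held 2 CCAAT boxes and 1 C/EBP match. Ass1 had no match to any of these motifs in this window, with a GC content of 75.6%, and Otc had a GC content of 43.6%. Of 32851 such windows in the table, 36.8% held the C/EBP motif, 33.8% the CCAAT box, 12.4% the TATA box and 1.19% the HNF4 motif. Matches of these letters are common, and none is a measured binding site.

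Arrays differed in brightness by slide, taking arrays with the same scan time as 1 slide. DECB 6 and control 1 shared slide 1, DECB 4 and controls 2 and 3 shared slide 2, and DECB 5 was alone on slide 3. The processed Cy3 signal had a 75th percentile of 84.8 in DECB 6 and 78.8 in control 1, and of 422 to 551 on the other 4 arrays. Levels are therefore given as log2 of the signal relative to that percentile of the same array. The hepatocyte markers Alb, Apoa1, Apob, Ttr, Serpina1a, Trf, Ahsg and Fgb were all measured, with a mean level of 7.39 to 8.0 in DECB livers and 7.85 to 8.11 in control livers (log2), so the samples carried the markers of the labelled tissue. Tests used limma with Benjamini-Hochberg adjustment over all 14805 genes, and a threshold of 0.05, and each difference is the DECB mean minus the control mean in log2 units.

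No member was called by limma, and 1 of the 9, Asl, had an unadjusted p under 0.05. Among all genes tested 0.466% were called and 10.0% had an unadjusted p under 0.05. The difference lay below 0 for 7 of the 9 members, with a median of -0.39, against 52.5% below 0 and a median of -0.03 over all genes tested. DECB and control arrays did not overlap for 2 of the 9 members, Asl and Oat, both lower in DECB, against 16.6% of all genes in either direction, 9.40% lower and 7.24% higher. The 95% interval of the difference included 0 for 8 of the 9 members.

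**Figure D1:**
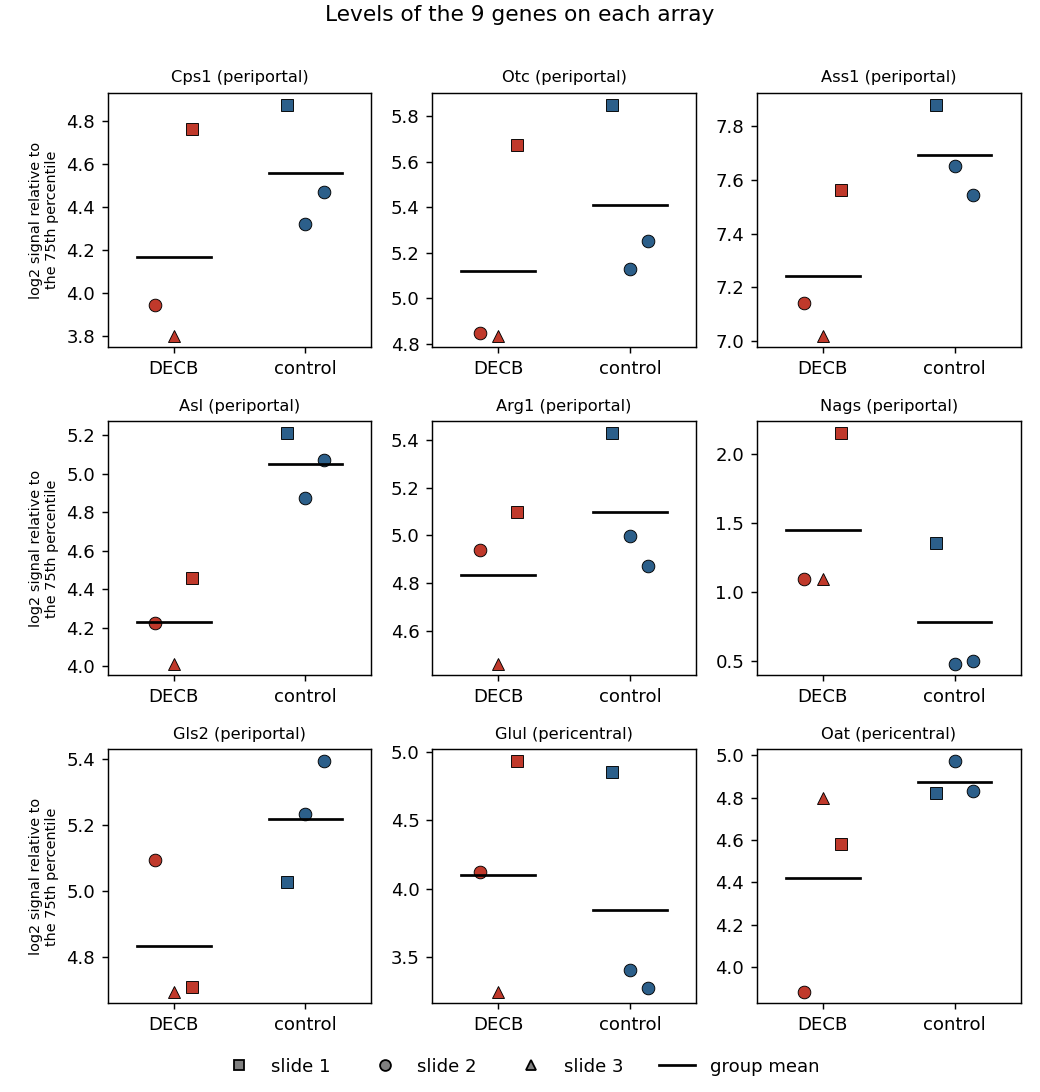
Level of each of the 9 genes on each array, in log2 units above the 75th percentile of that array, with DECB arrays in red on the left and control arrays in blue on the right of each panel; symbols give the slide and bars the group means (n = 3 each). The DECB arrays lie below the control arrays without overlap for Asl and Oat, and in most other panels the square of each group, the slide 1 array, is the highest of its group.

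None of the genes of the mitochondrial entry steps was called. Cps1, which commits ammonia to the cycle, had levels of 3.95, 3.80 and 4.76 in DECB 4, 5 and 6, against 4.87, 4.32 and 4.47 in controls 1, 2 and 3. DECB 4 and 5 lay below all controls, while DECB 6 lay among them. The difference was -0.39 (SE 0.36, adjusted p = 0.877), and its 95% interval ran from -1.22 to 0.45, which allows up to a 2.34-fold fall or a 1.37-fold rise.

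Otc, the X-linked enzyme of citrulline synthesis, had levels of 4.85, 4.84 and 5.67 in DECB 4, 5 and 6, against 5.85, 5.13 and 5.25 in controls 1, 2 and 3. Its order over the arrays was the same as that of Cps1 in that DECB 4 and 5 were the lowest and the 2 slide 1 arrays the highest. The difference was -0.29 (SE 0.36, adjusted p = 0.951) at the brighter probe. At the other probe, printed as 10 spots on each array, it was -0.36 (SE 0.36), and the SD among its repeated spots within an array was 0.040 to 0.115, below the spread between arrays of a group.

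Nags, which makes the activator of Cps1, was the 1 periportal member with a higher mean in DECB livers. Its levels were 1.09, 1.09 and 2.15 in DECB 4, 5 and 6, against 1.36, 0.48 and 0.50 in controls 1, 2 and 3. Control 1 lay above DECB 4 and 5, so the groups overlapped, although on each slide that held both groups the DECB array was the higher. The difference was 0.67 (SE 0.42, adjusted p = 0.735), a 1.59-fold mean difference with an interval from 0.795-fold to 3.17-fold. Within slide 1 it was 0.80 and within slide 2 it was 0.61.

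Of the cytosolic enzymes, Asl, which splits argininosuccinate into arginine and fumarate, stood lowest in DECB livers. Its levels were 4.23, 4.01 and 4.46 in DECB 4, 5 and 6, against 5.21, 4.87 and 5.07 in controls 1, 2 and 3. Every DECB array lay below every control array. The difference was -0.82 (SE 0.28, unadjusted p = 0.0203, adjusted p = 0.36), a DECB level 0.566 times that of control with an interval from 0.361 to 0.888 times. It was -0.76 within slide 1 and -0.75 within slide 2. At this difference 7.68% of all genes tested lay lower.

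Ass1, which joins citrulline to aspartate, had levels of 7.14, 7.02 and 7.56 in DECB 4, 5 and 6, against 7.88, 7.65 and 7.54 in controls 1, 2 and 3. The groups crossed in 1 place, where DECB 6 lay just above control 3. The difference was -0.45 (SE 0.29, adjusted p = 0.739) at the brighter probe and -0.25 (SE 0.56) at its second probe, where DECB 6 and control 1 were 7.55 and 7.53 and the other arrays between 5.91 and 6.37.

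Arg1, which makes urea, had levels of 4.94, 4.46 and 5.10 in DECB 4, 5 and 6, against 5.43, 5.00 and 4.87 in controls 1, 2 and 3. The groups overlapped, with DECB 5 alone below all controls. The difference was -0.27 (SE 0.31, adjusted p = 0.941), and it was -0.33 within slide 1 and 0.0044 within slide 2.

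The glutamine enzymes differed in opposite ways on average. Gls2, the periportal glutaminase, had levels of 5.09, 4.69 and 4.71 in DECB 4, 5 and 6, against 5.03, 5.23 and 5.40 in controls 1, 2 and 3. Of the DECB arrays only DECB 4 lay above a control array, control 1, and the difference was -0.39 (SE 0.28, adjusted p = 0.794). In both groups the slide 1 array lay below the mean of the other arrays, which held for no other member at this scaling, and for 4 members with the normexp background correction.

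Glul, the glutamine synthetase of the cells around the central vein, had levels of 4.12, 3.24 and 4.93 in DECB 4, 5 and 6, against 4.85, 3.41 and 3.27 in controls 1, 2 and 3. The arrays of each group spanned more than the distance between the group means, with SDs of 0.84 in DECB and 0.87 in control (n = 3 each). The difference was 0.26 (SE 0.58, adjusted p = 1.00), and its 95% interval, -1.12 to 1.63, was the widest of the 9 members, which allows up to a 2.17-fold fall or a 3.09-fold rise. Its sign turned without control 3 (-0.03) and without DECB 6 (-0.16).

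Oat, the ornithine-degrading enzyme, had levels of 3.88, 4.8 and 4.58 in DECB 4, 5 and 6, against 4.82, 4.97 and 4.83 in controls 1, 2 and 3. The groups did not overlap, but DECB 5 lay just below control 1, and DECB 4 was far below the rest. The difference was -0.45 (SE 0.33, adjusted p = 0.794), with -0.24 within slide 1, -1.02 within slide 2 and -0.18 without DECB 4. The pair of pericentral genes therefore differed from control in opposite directions on average, with no test passed by either.

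**Figure D2:**
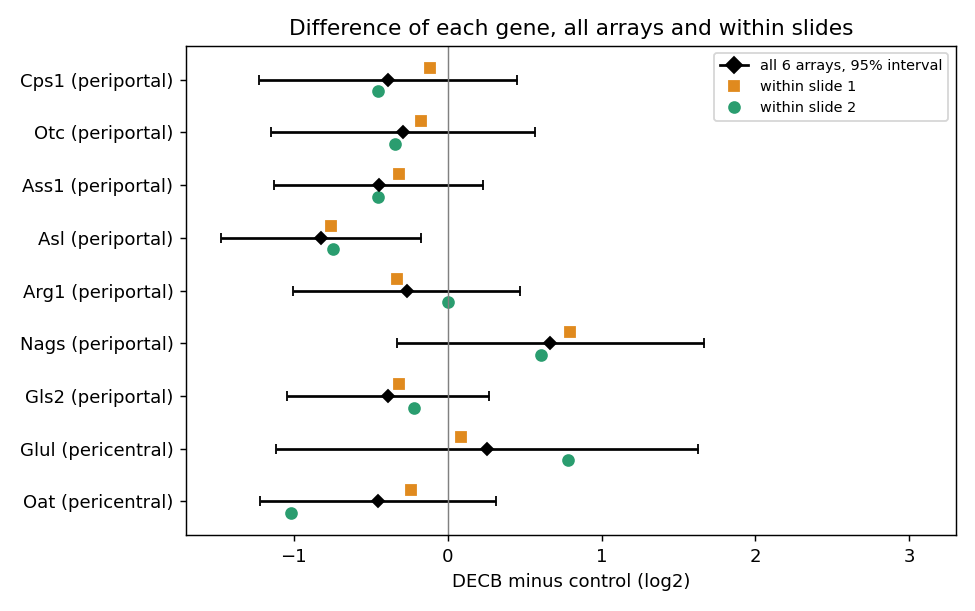
DECB minus control difference of each gene on the log2 scale; diamonds give the limma estimate over all 6 arrays with its 95% interval, squares the difference within slide 1 and circles that within slide 2. The interval of Asl alone lies wholly below 0, from -1.47 to -0.17, and the differences within the slides have the same sign for 8 of the 9 genes, Arg1 being the exception.

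Set by zone, 6 of the 7 periportal members lay below 0, with a median of -0.39, and 1 of the 2 pericentral members did, with a median of -0.10. Within slide 1 the periportal median was -0.32 with 6 of 7 below 0, and within slide 2 it was -0.34 with 5 of 7 below 0. Whether the zones differed was not tested. Zone markers outside the 9 members also leaned lower in both zones, against 52.5% of all genes tested below 0. Of 20 other periportal genes measured, 16 lay below 0 (median -0.34), and of 22 other pericentral genes measured, 19 did (median -0.46). Their mean levels were 3.78 to 4.16 in DECB livers and 4.20 to 4.59 in control livers for the periportal genes, and 2.09 to 2.58 in DECB livers and 2.64 to 2.80 in control livers for the pericentral genes (log2).

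Among the other periportal genes G6pc, glucose-6-phosphatase, was the 1 called. Its levels were 1.57, 2.12 and 2.89 in DECB 4, 5 and 6, against 5.60, 4.95 and 4.80 in controls 1, 2 and 3, with no overlap. It fell by 2.93 log2 units (SE 0.42, adjusted p = 0.0491) in the fit that called 0.257% of genes lower. Cdh1, the epithelial cadherin, Hal, histidine ammonia-lyase, and Pck1, of gluconeogenesis, had differences of 1.43, -1.51 and -1.16 (adjusted p = 0.0962, 0.14 and 0.323, and 0.0329, 0.0254 and 0.0533 with slide blocked). The fit with slide blocked called 6.67% of all genes, against 0.466% without a block. DECB 5, alone on its slide, does not enter the blocked contrast, and few degrees of freedom remain for the spread. Blocked p-values, here and below, are therefore no independent support. Of the other pericentral genes 0 were called by limma, with 2 at an unadjusted p under 0.05. These were Slc13a3, a dicarboxylate carrier, with a difference of 1.17, and Slc1a2, a glutamate carrier, with a difference of -0.95 (adjusted p = 0.152 and 0.423, and 0.0323 and 0.109 with slide blocked). Rnf43 and Nkd1, feedback genes of the Wnt pathway, had differences of -0.70 and -0.65 (adjusted p = 0.51 and 0.593). Other Wnt pathway genes of this list, Sp5, Axin2 and Lgr5, chosen after their values were seen, differed by -0.53, -0.19 and -0.05. Axin2 (SE 0.98) and Lgr5 were each well above background on only 2 DECB arrays and 2 control arrays.

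For several members the arrays of slide 1 differed from the others by more than DECB differed from control. Glul was higher on the slide 1 array than on the mean of the other 2 arrays of its group by 1.25 in DECB and 1.51 in control (log2), and its treatment difference was 0.26. Nags was higher there by 1.06 in DECB and 0.87 in control, Otc by 0.83 and 0.66, and Cps1 by 0.88 and 0.48. The mean slide difference exceeded the treatment difference in size for 5 of the 9 members, Cps1, Otc, Arg1, Nags and Glul. The share of all genes for which it did so was not counted. The slide differences of Cps1, Otc, Arg1, Nags and Glul lay above those of 71.2%, 74.3%, 59.9%, 84.2% and 96.2% of all genes. The median slide difference over all genes was 0.22. These values depend on the scaling, since with the normexp background correction the all-gene median was 0.49 and 3 members, Gls2, Glul and Oat, had the larger slide difference, against 6 with quantile normalization. The slide 1 array was above the others in both groups for 7 members at the 75th percentile scaling and for 2, Nags and Glul, with normexp. Slide 1 was the dim slide, and what part brightness had in these differences was not tested.

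**Figure D3:**
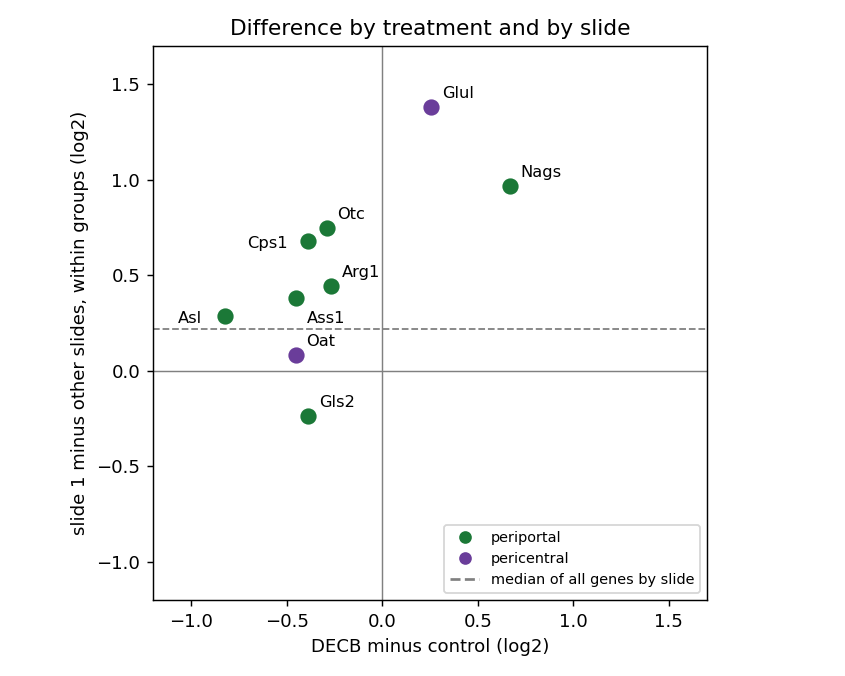
DECB minus control difference (x axis, log2) against the difference of the slide 1 array from the other arrays of the same group, averaged over both groups (y axis, log2), with periportal genes in green and pericentral genes in purple. Glul and Nags lie highest, at 1.38 and 0.97 by slide, Asl lies farthest left at -0.82 by treatment, and the dashed line is the all-gene median by slide, 0.22.

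Across the 6 arrays Cps1 and Otc followed each other most closely, with Pearson's r of 0.974, and Ass1 and Arg1 correlated with Cps1 at 0.915 and 0.846. Nags correlated with Glul at 0.83 and with Gls2 at -0.78. These values describe 6 arrays that share slides and groups. Of all genes tested, Rcl1, Ocln, Angptl4 and Cyp8b1 had the patterns most like that of Asl over the 6 arrays (r from 0.994 to 0.998), with differences of -1.13, -1.11, -2.16 and -2.51. For Oat the nearest patterns were those of Shc4, Cd33, Lzts3 and Nr1h5 (r from 0.994 to 0.997), with differences of -0.89, -0.66, -0.74 and -0.88. Of these neighbours Cyp8b1 alone was called by limma (adjusted p = 0.0491). The neighbours were picked by likeness over the same 6 arrays, so the high r and the shared sign follow from that choice.

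The carriers and enzymes around the cycle were measured for 16 of 18 genes. None was called by limma, 1 had an unadjusted p under 0.05 in the higher direction and 6 in the lower, and 14 lay below 0 (median -0.40). Over all genes tested 10.0% had an unadjusted p under 0.05, in either direction, and 52.5% lay below 0. The groups stood apart for 9 of the 16, 8 of them lower in DECB, against 16.6% of all genes in either direction and 9.40% lower. Slc25a22, a mitochondrial glutamate carrier, had levels of 3.57, 3.76 and 3.72 in DECB 4, 5 and 6, against 4.83, 5.52 and 5.25 in controls 1, 2 and 3. Every DECB array was below every control array, with a difference of -1.52 (SE 0.29, adjusted p = 0.0969). With slide blocked, where 6.67% of all genes were called and 3.94% were called lower, its adjusted p was 0.0377.

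Slc7a2, a carrier of arginine and other cationic amino acids, had levels of -0.63, -0.98 and -1.10 in DECB 4, 5 and 6, against 0.45, 0.57 and 0.31 in controls 1, 2 and 3, again with no overlap (difference -1.35, SE 0.28, adjusted p = 0.113, and 0.0382 with slide blocked). Got1, the cytosolic enzyme that makes aspartate, the second nitrogen donor of the cycle, had levels of 3.97, 3.55 and 5.24 in DECB 4, 5 and 6, against 7.17, 5.87 and 5.79 in controls 1, 2 and 3. Its groups did not overlap either, and the difference was -2.02 (SE 0.56, adjusted p = 0.236, and 0.0176 with slide blocked). Adssl1, an adenylosuccinate synthase, had a difference of -1.17 (adjusted p = 0.229, and 0.0323 with slide blocked). Slc25a15, which exchanges ornithine and citrulline across the mitochondrial membrane and was chosen after its values were seen, differed by -0.06 (adjusted p = 1.00).

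Glutamine, glutamate and ammonia genes outside the 9 members did not lean one way. Of 29 measured of 30, 16 lay above 0 and 13 below (median 0.11), and 1 was called. Slc38a4, a sodium-coupled amino acid carrier of hepatocytes, had levels of 2.11, 2.01 and 1.91 in DECB 4, 5 and 6, against 3.74, 3.97 and 4.01 in controls 1, 2 and 3. It fell by 1.90 log2 units (SE 0.26, adjusted p = 0.043), and the SDs were 0.098 in DECB livers and 0.14 in control livers. Gfpt1, which spends glutamine to make glucosamine 6-phosphate, had levels of 1.84, 1.59 and 1.54 in DECB livers, against 0.14, 0.19 and 0.14 in control livers, with no overlap (difference 1.5, SE 0.26, adjusted p = 0.0722, and 0.0225 with slide blocked). The amino acid carrier Slc38a5 and the mitochondrial glutamate carrier Slc25a18, each well above background on 1 DECB array and 2 control arrays, had differences of -1.02 and -1.12 (adjusted p = 0.34 and 0.412), which were -0.25 and -0.26 with normexp. Glud1, glutamate dehydrogenase, chosen after its values were seen, differed by -0.13.

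The fates of ornithine were measured through 14 genes of 17, 7 above 0 and 7 below (median -0.06), and 1 was called. Srm, spermidine synthase, had levels of 2.76, 2.35 and 2.74 in DECB 4, 5 and 6, against 0.53, 0.28 and 0.26 in controls 1, 2 and 3. It rose by 2.26 log2 units (SE 0.27, adjusted p = 0.0352), in the fit that called 0.209% of genes higher. Prodh, which breaks proline down, had a difference of -1.10, and Odc1, which turns ornithine into putrescine, 0.72 (adjusted p = 0.205 and 0.625, and 0.0391 and 0.0875 with slide blocked).

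The calls of Srm, Slc38a4 and G6pc depended on which arrays were used. Without both arrays of slide 1 all 3 were called (adjusted p = 0.0484, 0.0475 and 0.0471), and with slide blocked they were too (0.0176, 0.0176 and 0.0174). With 1 array left out, the difference of Srm stayed between 2.19 and 2.39, that of Slc38a4 between -1.98 and -1.85, and that of G6pc between -3.27 and -2.61. The adjusted p then lay between 0.0562 and 0.227 for Srm and between 0.0695 and 0.288 for Slc38a4, and G6pc was called only without DECB 6 (adjusted p = 0.0358, and 0.11 to 0.233 otherwise). The call of Slc38a4 was also lost with normexp (adjusted p = 0.117) and that of Slc38a4 and G6pc with quantile normalization (0.075 and 0.056). All 3 were lost when dim probes were kept (0.137 to 0.164) and when controls 2 and 3, which correlated at 0.992, were averaged to 1 sample (0.223 to 0.285).

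Enzymes of amino acid breakdown, a process that supplies the cycle with nitrogen, were measured for all 20 genes. Of these 18 lay below 0 (median -0.61), 0 were called by limma, and 3 had an unadjusted p under 0.05, all lower. Among all genes tested 52.5% lay below 0, and 5.79% had an unadjusted p under 0.05 in the lower direction. Hal, Sds, Gldc and Ftcd were also counted among the other periportal genes, so the 2 lists are not separate. Hal had levels of 3.08, 3.23 and 3.91 in DECB 4, 5 and 6, against 5.24, 4.85 and 4.65 in controls 1, 2 and 3. The groups did not overlap (difference -1.51, SE 0.34, adjusted p = 0.14, and 0.0254 with slide blocked). Gcat, of threonine breakdown, Hpd, of tyrosine breakdown, and Sds, serine dehydratase, had differences of -0.98, -0.93 and -0.71 (adjusted p = 0.242, 0.367 and 0.647, and 0.0459, 0.0617 and 0.0802 with slide blocked).

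Of 15 regulators known to act on urea cycle genes, 0 were called by limma, 2 had an unadjusted p under 0.05, and 9 lay below 0 (median -0.16). The shares over all genes tested were 10.0% at that p and 52.5% below 0, so these counts do not set the list apart. Ppara, a receptor that switches on fat oxidation, had levels of 3.44, 3.56 and 3.70 in DECB 4, 5 and 6, against 5.47, 4.96 and 5.25 in controls 1, 2 and 3, with no overlap (difference -1.66, SE 0.28, adjusted p = 0.0679, and 0.0215 with slide blocked). Ppargc1a, a coactivator of fasting genes, Crem, a cAMP-responsive factor, and Foxo1, which insulin restrains, had differences of -1.43, 0.57 and -0.71 (adjusted p = 0.203, 0.55 and 0.649, and 0.0368, 0.121 and 0.0717 with slide blocked). Hnf4a and Cebpa, hepatocyte transcription factors chosen after their values were seen, differed by -0.31 and 0.37 (adjusted p = 0.953 and 0.959).

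**Figure D4:**
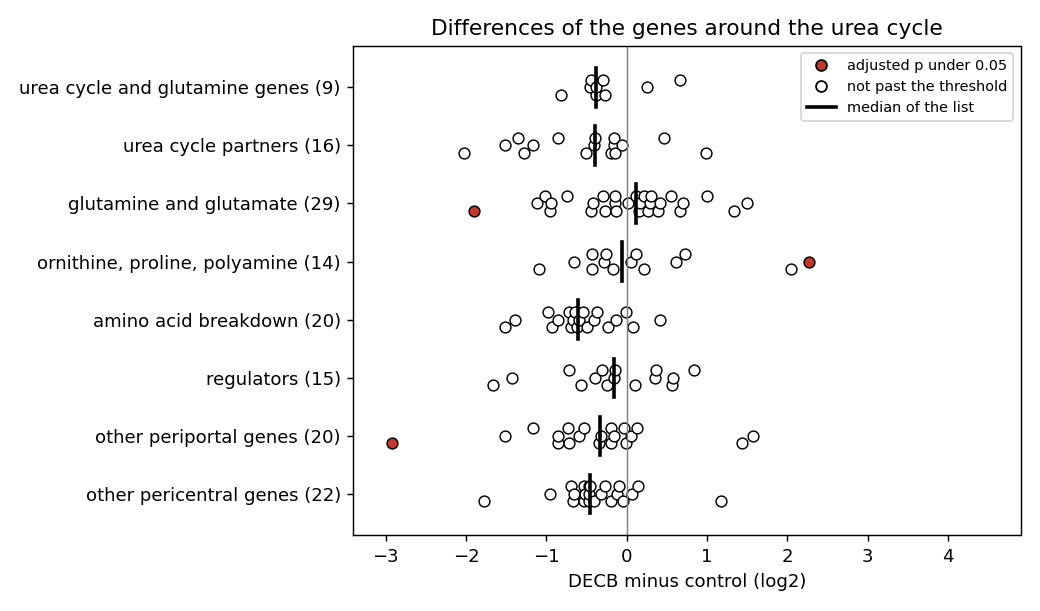
DECB minus control difference (log2) of every measured gene of the 9 members and of the lists around them, with the number of genes in brackets; filled points passed limma at an adjusted p under 0.05, open points did not, and black bars are list medians. The 3 filled points are Slc38a4 at -1.90, Srm at 2.26 and G6pc at -2.93, and no point of the urea cycle and glutamine genes is filled.

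Markers of other cells were also compared, and no marker of the lists described here was called in the fit without a block. Leukocyte genes, 5 of 8 with a value on every array, had a mean level of -0.78 to -0.65 in DECB livers and -1.62 to -1.24 in control livers (log2). Of 6 leukocyte genes measured, 5 lay above 0 (median 0.34). The neutrophil genes S100a8 and S100a9 each had a difference of 1.57 (adjusted p = 0.101 and 0.167, and 0.0309 and 0.0215 with slide blocked). Cd79a, of B cells, had a difference of 0.61 (adjusted p = 0.614). Ptprc, Nkg7 and Cd3e, of leukocytes or lymphocytes in general, had differences of 0.01, 0.07 and -0.22, and Cd3e had no value on DECB 4. Cholangiocyte genes, 6 of 8, had a mean level of -1.60 to -0.73 in DECB livers and -2.41 to -1.40 in control livers, with overlap. Of these 6, 5 lay above 0 (median 0.72). Sox9 and Krt19 had an unadjusted p under 0.05, with differences of 0.996 and 0.76 (adjusted p = 0.435 and 0.466). Krt19 and Cd79a were each well above background on only 2 DECB arrays and 2 control arrays, which limits their differences.

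The Kupffer, endothelial and stellate lists overlapped between the groups in mean level. The difference lay below 0 for 6 of 8 Kupffer genes (median -0.28), 6 of 8 endothelial genes (median -0.33) and 7 of 8 hepatocyte genes (median -0.21). For stellate genes it lay below 0 for 4 of 7 measured (median -0.17). Stab2, a scavenger receptor of sinusoidal endothelium, had a difference of -0.996 (adjusted p = 0.53, and 0.0463 with slide blocked). Of 3 erythroid genes measured, the haemoglobin gene Hba-a1 had a difference of -1.73 with no overlap between the groups (adjusted p = 0.191) and Alas2, of haem synthesis, a difference of 0.88 (adjusted p = 0.543). The 4 measured genes of pancreas, intestine and kidney all lay below 0 (median -0.25). The part of such cells in the levels of the 9 members was not tested.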

How the data were processed

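Liver RNA of 6 samples, 3 DECB and 3 control, was measured on 1-colour Agilent arrays. Per the file headers, the deposited intensity values are processed Cy3 signals of Agilent Feature Extraction 11.0.1.1, whose headers list background subtraction and detrending statistics, and raw median signals of spots and local background. The deposited series table holds log2 values, and no source used here tells how they were made. The columns share a median of 5.35 over 39429 probes, and each correlated with its own array at only 0.742 to 0.774. In some cases that was less close than with another array, so the series table entered no comparison. Its values rose with the signal, but how they were scaled and centred stays unknown.

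Groups came from sample titles. Levels are log2 processed signals from which the 75th percentile of the same array, over 43020 non-control spots, was subtracted. Outlier spots (164 to 322 per array) were left out, spots of a probe averaged, and probes kept, whatever the group, if well above background on 3 or more of 6 arrays. Names came from RefSeq accessions (27234 of 39429 probes named, GRCm38.p6), and the brightest probe stood for a gene. limma 3.58.1 in R 4.3.3 (lmFit, eBayes, two-sided) gave differences, SEs, 95% intervals and p-values. The fit was also tried on simulated arrays, but these had no slide differences, so that trial does not cover them. The number of arrays limits precision. An exact permutation test of 3 against 3, which was not run, could not give a p below 0.1. The median signal replaced the mean signal in the planned normexp alternative. Members, lists and tests were chosen with earlier results of these data known. Besides the members, the rule for named genes took called list genes, the 4 of each list with the smallest p, and the 4 nearest patterns. A gene that this rule takes is not reported here. Alternatives were other scalings, filters, probe choices, slide as a block and arrays left out.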

Additional observations from a re-analysis of the deposited data

How the results depend on the processing

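No paired analysis was possible because the titles number the samples from 1 to 6 across the groups and the source text calls every sample replicate 1, so arrays were blocked by slide alone. No member was called by limma under any of the 14 tested alternatives (smallest adjusted p 0.0617 for Asl and 0.0679 for Nags, both with slide blocked, which leaves DECB 5 outside the contrast). Over all 16 alternatives Asl ran from -0.93 to -0.66, Nags from 0.31 to 0.96, Ass1 from -0.61 to -0.32 and Oat from -1.02 to -0.18. Signs turned for Arg1 within slide 2 (0.0044), and for Glul without control 3 (-0.03) and without DECB 6 (-0.16), the range with 1 array left out being -0.16 to 0.76. The cause was not tested. Genes called numbered 31 higher and 38 lower with all arrays, 15 and 22 with quantile normalization, 405 and 583 with slide blocked, and 0 and 2 with controls 2 and 3 averaged (883 at an unadjusted p under 0.05). Keeping all dim probes, limma called 0 and 0 (1257 at an unadjusted p under 0.05). With 1 array left out, 0 to 18 were called higher and 0 to 35 lower (853 to 2119 at an unadjusted p under 0.05). Under these fits the periportal median stayed between -0.57 and -0.20, while the pericentral median, of 2 genes, ran from -0.35 to 0.14. On slide 1 the 75th percentile was 3.75 to 4.04 times the local background, against 25 to 30.6 times elsewhere, which limits dim genes there.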
